A study of Mus musculus with 6 samples.

Results

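Immediate early genes and stress genes of isolated islets were examined as a set of 45 genes, selected by symbol from the 19342 genes of the deposited count table because *Fos* and *Egr1* varied widely between islet preparations. That spread between libraries is therefore what chose the set, and it is given here as a description with no test. The set held 9 groups by role: AP-1 and related bZIP factors, EGR zinc finger factors, NR4A orphan receptors, KLF factors, activity-regulated neuronal genes, growth arrest and stress genes, feedback inhibitors, a secreted factor with a prostaglandin synthase, and heat shock proteins. Of the 45 genes, 44 passed the filter on low counts. *Fosl1* did not, with between 0 and 11 counts per library.

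RNA-seq was performed on pancreatic islets of wild-type mice (FXR+/+) and of mice lacking FXR (FXR-/-), the bile acid receptor encoded by *Nr1h4*. All mice were 3 months of age, and the knockout mice were on the C57Bl/6 background. Each genotype had 3 libraries, named here female 1, male 1 and male 2, so that sex was represented by 1 female and 2 males per genotype. The islets were freed from the pancreas by collagenase P, and no treatment other than isolation is labelled. The sources used here do not say whether a library held the islets of 1 mouse or of several, nor how long the islets stood before RNA was taken, so the p-values measure the spread between these 6 libraries. Library totals ran from 20629306 to 30139235 gene counts. *Nr1h4* was counted in every library, at 14.2, 13.6 and 12.2 CPM in FXR+/+ and at 5.67, 7.63 and 5.81 CPM in FXR-/- islets, lower in every FXR-/- library as labelled.

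Immediate early genes are transcribed within minutes of a stimulus, without new protein synthesis, from factors such as CREB and the serum response factor that are already present in the resting cell. Their products are mostly short-lived transcription factors, together with phosphatases and RNA-decay proteins that shut the response down. In islets the same genes respond to glucose and membrane depolarisation, and in many tissues they are induced by enzymatic dissociation, while heat shock proteins rise through a separate factor, HSF1, when proteins misfold.

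The promoters of *Fos* and *Atf3*, which had the same highest and lowest library, and of *Npas4* and *Rgs2*, which had another highest or another lowest one, are shown because all hold the letters TGACGT, the core of the cyclic AMP response element bound by CREB. The sequences are the 250 bases before the annotated start from RefSeq on GRCm38.p6, written 5′ to 3′ on the strand of the gene, with TGACGT or its reverse complement ACGTCA in capitals. They lie at chr12:85473640-85473889 on the plus strand (*Fos*) and, on the minus strand, at chr1:191183334-191183583 (*Atf3*), chr19:4989972-4990221 (*Npas4*) and chr1:144004150-144004399 (*Rgs2*).
Fos: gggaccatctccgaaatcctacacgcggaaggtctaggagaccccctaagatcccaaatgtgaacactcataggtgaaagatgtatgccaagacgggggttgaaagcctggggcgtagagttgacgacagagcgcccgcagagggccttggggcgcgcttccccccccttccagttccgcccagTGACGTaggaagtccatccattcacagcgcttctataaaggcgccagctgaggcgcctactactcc
Atf3: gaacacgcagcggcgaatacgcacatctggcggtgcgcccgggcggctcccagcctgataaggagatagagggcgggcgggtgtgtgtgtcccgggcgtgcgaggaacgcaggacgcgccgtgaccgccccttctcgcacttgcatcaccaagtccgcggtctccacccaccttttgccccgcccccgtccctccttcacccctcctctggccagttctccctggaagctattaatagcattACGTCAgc
Npas4: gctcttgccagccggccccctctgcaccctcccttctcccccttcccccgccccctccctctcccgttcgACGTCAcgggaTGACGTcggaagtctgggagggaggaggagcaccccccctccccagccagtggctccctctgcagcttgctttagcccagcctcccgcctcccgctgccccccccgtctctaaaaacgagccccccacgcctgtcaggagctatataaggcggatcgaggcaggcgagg
Rgs2: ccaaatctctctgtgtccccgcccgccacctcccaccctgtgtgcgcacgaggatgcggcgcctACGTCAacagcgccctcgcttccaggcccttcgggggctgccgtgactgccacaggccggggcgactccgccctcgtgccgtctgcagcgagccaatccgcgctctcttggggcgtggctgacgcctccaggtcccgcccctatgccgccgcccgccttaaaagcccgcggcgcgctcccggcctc
The letters stood 66 bases before the start in *Fos*, 8 bases before it in *Atf3*, and 186 bases before it in *Rgs2*. *Npas4* held them in both orientations, at 180 and 169 bases before the start. The starts of *Fos* and *Npas4* also occur in GENCODE vM21, a second annotation. Those of *Atf3* and *Rgs2* do not, so their distances hold for the RefSeq start only.

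Promoters of the same length were found for 37 of the 45 genes. Each gene was counted once, if the promoter of any of its listed starts held the letters. TGACGT on either strand, a motif chosen after the sequences were seen, was present in 12 of the 37 (32.4%). Of the 11560 genes tested that had a promoter, 11.2% held it, and the shares below are over the same genes. The full palindrome TGACGTCA, which contains the shorter letters, was present in 3 (*Btg2*, *Dusp1* and *Maff*), or 8.11% against 3.06%. The CArG box of the serum response factor was found in 3 (*Dusp5*, *Egr2* and *Zfp36*), or 8.11% against 1.42%. The EGR site GCGTGGGCG or GCGGGGGCG, also chosen afterwards, was found in 9, or 24.3% against 6.61%. The AP-1 site TGACTCA or TGAGTCA was found in *Csrnp1* alone, or 2.70% against 3.81%. These are matches of letters in a short window and not measurements of binding.

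The set varied far more between islet preparations than genes at large did. The highest library was at least 4 times the lowest for 34 of the 44 genes, against 4.71% of the 14619 genes tested. The members nearest to that limit were *Myc*, at 4.15 times, and *Dnajb1*, at 3.94 times. The 34 include *Egr2*, *Egr3*, *Egr4*, *Dusp2* and *Ptgs2*, which had fewer than 10 counts in FXR+/+ male 2. The spread was present inside each genotype: within the FXR+/+ libraries 27 genes differed at least 4-fold (2.48% of all genes), and within the FXR-/- libraries 28 did (1.53%). The biological coefficient of variation, the part of the scatter that edgeR assigns to differences between libraries beyond counting error, had a median of 0.511 over the 44 genes, where genes of the same abundance stood at a median trend of 0.128.

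The same libraries were high and low for most of the set. FXR-/- male 1 was highest for 37 of 44 genes, against 24.6% of all genes. FXR+/+ male 1 was highest for the other 7, which were *Egr3*, *Nr4a1*, *Arc*, *Npas4*, *Ptgs2*, *Hspa1a* and *Hspa1b*. Both male 1 libraries together held the top places for 39 genes (9.63% of all genes). FXR+/+ male 2 was lowest for 36 genes, against 23.3% of all genes. The 8 exceptions were *Fosl2*, *Gadd45a*, *Csrnp1*, *Ier5*, *Rgs2*, *Hspa1a*, *Hspa1b* and *Dnajb1*. Under other scalings or exon counts these numbers ran from 32 to 37 for FXR-/- male 1 and from 36 to 37 for FXR+/+ male 2. *Fos*, whose male 1 libraries were close, was highest in FXR+/+ male 1 with upper quartile scaling or library size alone, and *Ier5* was then lowest in FXR+/+ male 2, as also with exon counts. The set took 1.03% of all counts in FXR-/- male 1 and 0.138% in FXR+/+ male 2. In the other libraries it took 0.513% (FXR+/+ female 1), 0.850% (FXR+/+ male 1), 0.256% (FXR-/- female 1) and 0.462% (FXR-/- male 2).

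**Figure D1:**
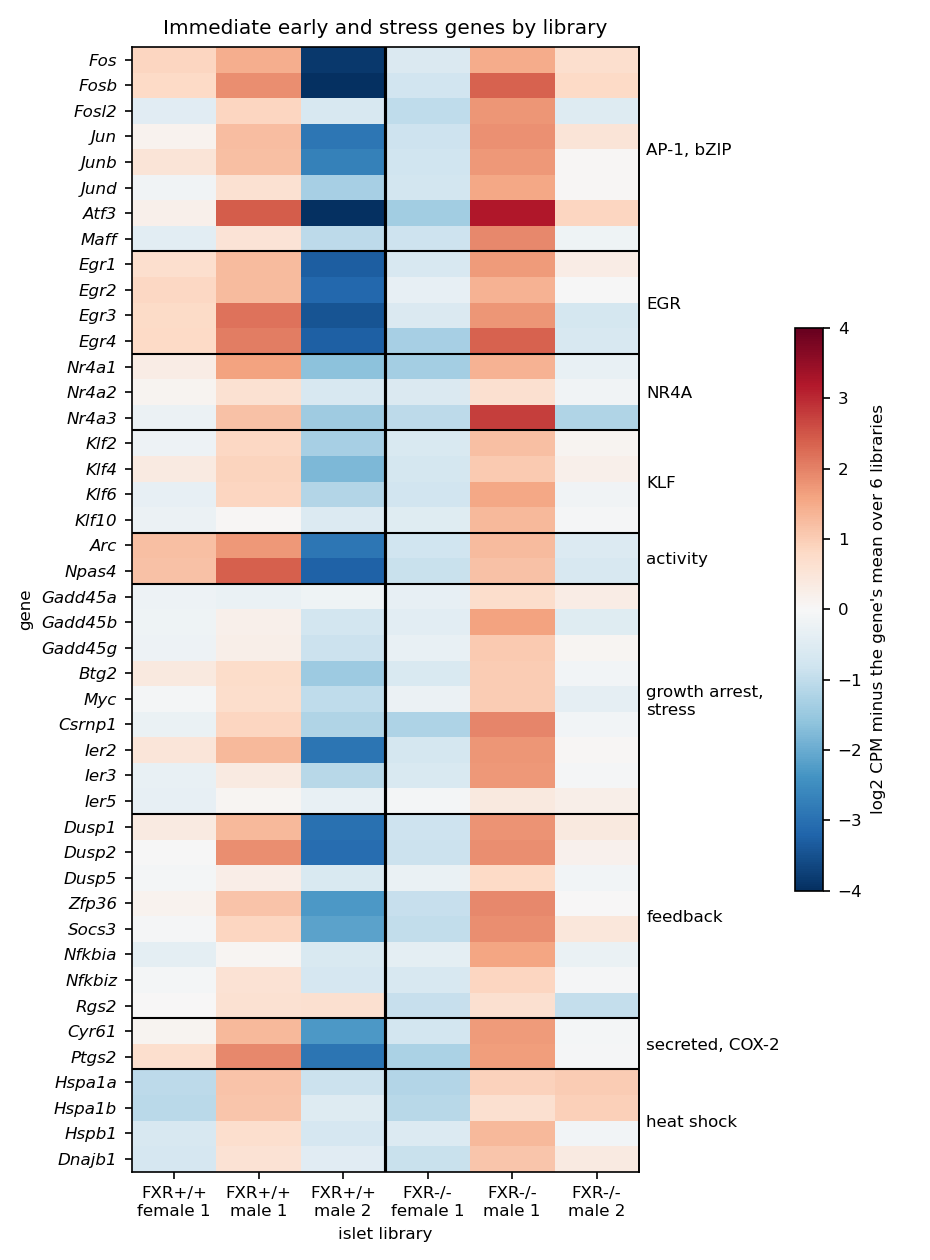
Level of the 44 genes that passed the filter (rows, grouped by role) in the 6 islet libraries (columns), as log2 CPM minus the gene's own mean over the 6 libraries. The male 1 columns of both genotypes are mostly red and the FXR+/+ male 2 column is mostly blue from the AP-1 factors to the feedback inhibitors, while *Rgs2*, *Hspa1a*, *Hspa1b* and *Dnajb1* depart from this pattern. *Gadd45a* is below its mean in FXR+/+ male 1.

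The AP-1 and related bZIP factors bind DNA as dimers, such as those of FOS and JUN proteins. This group held *Atf3* and *Fosb*, the genes with the largest single ratios between libraries. By the median ratio of highest to lowest library, the EGR factors (40.4) and the activity-regulated genes (37.0) were above the AP-1 group (23.9). The EGR median rested largely on *Egr2*, *Egr3* and *Egr4*, with 6, 8 and 5 counts in FXR+/+ male 2, while *Egr1* spanned 31.5 times. The activity-regulated group had only 2 genes. *Fos* (NCBI gene 14281), the prototype of the group, lies on GRCm38 chromosome 12 from 85473890 to 85477274. It measured 810, 1216 and 30.7 CPM in FXR+/+ female 1, male 1 and male 2, and 296, 1256 and 706 CPM in the FXR-/- libraries in the same order. CPM are counts scaled by TMM to the effective library size. FXR+/+ male 2 lay 40.9 times below the highest library, the FXR-/- values all fell inside the FXR+/+ range except the highest, and the genotype means of 686 ± 602 and 753 ± 481 CPM (SD, n = 3 each) differed by much less than their spread.

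*Fosb*, a FOS paralogue, measured 372, 767 and 6.44 CPM in FXR+/+ and 125, 1078 and 370 CPM in FXR-/- islets. *Jun*, the main partner of FOS, measured 392, 836 and 48.5 CPM in FXR+/+ and 203, 1262 and 508 CPM in FXR-/- islets. *Atf3*, a stress-induced repressor of the ATF family, measured 32.7, 151 and 0.726 CPM in FXR+/+ and 10.8, 262 and 51.0 CPM in FXR-/- islets. All 3 genes repeated the order of *Fos* at both ends, and the ratio of highest to lowest library was 167 for *Fosb*, 26.0 for *Jun* and 361 for *Atf3*, the last resting on 23 counts in FXR+/+ male 2. *Junb*, *Jund*, *Maff* and *Fosl2* spanned between 6.89 and 21.8 times.

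*Egr1*, a zinc finger factor induced with *Fos* by the same kinases, measured 632, 968 and 41.1 CPM in FXR+/+ and 257, 1296 and 491 CPM in FXR-/- islets. The ranges of the genotypes overlapped, with means of 547 ± 469 and 681 ± 545 CPM (SD, n = 3 each). *Egr2*, *Egr3* and *Egr4* were scarce, with means of 2.43, 5.10 and 3.07 CPM, and FXR+/+ male 2 held only 6, 8 and 5 of their counts. Among the NR4A orphan receptors, which act without a known ligand, *Nr4a1* was the most abundant. It measured 146, 365 and 38.4 CPM in FXR+/+ and 47.1, 316 and 98.1 CPM in FXR-/- islets, with the top of the range in FXR+/+ male 1. *Nr4a2* spanned 2.42 times and *Nr4a3* 18.1 times.

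*Klf6*, the most abundant of the KLF zinc finger factors, measured 37.0, 84.3 and 20.4 CPM in FXR+/+ and 26.9, 136 and 42.2 CPM in FXR-/- islets. *Klf2*, *Klf4* and *Klf10* followed the same order at both ends, over 5.77, 7.25 and 3.53 times. *Btg2*, an antiproliferative gene and the most abundant of the growth arrest and stress group, measured 339, 438 and 95.9 CPM in FXR+/+ and 171, 530 and 245 CPM in FXR-/- islets. *Ier2*, an early response gene of the same group, measured 103, 178 and 9.69 CPM in FXR+/+ and 45, 251 and 75.9 CPM in FXR-/- islets. Again the male 1 libraries stood at the top and FXR+/+ male 2 at the bottom.

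The feedback inhibitors, which are induced by the factors and kinases they restrain, mostly shared this order. *Dusp1*, a phosphatase that inactivates MAP kinases, measured 216, 415 and 21.6 CPM in FXR+/+ and 94.9, 587 and 222 CPM in FXR-/- islets, a span of 27.2 times. *Zfp36*, which speeds the decay of AU-rich messengers, spanned 18.4 times, and *Socs3*, an inhibitor of cytokine receptors, spanned 15.8 times. *Nfkbia*, the inhibitor of NF-κB, spanned 4.56 times with its peak in FXR-/- male 1. *Dusp2* and *Ptgs2*, the latter encoding the inducible prostaglandin synthase COX-2, had 2 counts each in FXR+/+ male 2, too few for a ratio. *Cyr61*, a secreted matricellular protein, measured 22.5, 51.7 and 4.23 CPM in FXR+/+ and 12.4, 67.7 and 19.8 CPM in FXR-/- islets.

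*Rgs2*, which limits signalling through Gq-coupled receptors, stood apart from this group and was singled out after its values were seen. It measured 139, 212 and 214 CPM in FXR+/+ and 72.7, 215 and 72.4 CPM in FXR-/- islets. FXR+/+ male 2 was thus level with both male 1 libraries rather than lowest, and FXR-/- female 1 and male 2 were the low libraries. The genotype difference in *Rgs2* had a log2 fold change of -0.69 ± 0.34 (SE) and an adjusted p of 0.496 by edgeR. With a replicate block in place of sex it was -0.83 (adjusted p = 0.188), and with a library left out it ran from -1.29 (adjusted p = 0.160, without FXR-/- male 1, the only FXR-/- library at the FXR+/+ level) to -0.38 (adjusted p = 0.656, without FXR-/- male 2). With both male 2 libraries left out it was -0.45 (adjusted p = 0.467).

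The activity-regulated genes *Npas4* and *Arc*, known from neurons and induced by calcium entry in excitable cells, peaked in FXR+/+ male 1. *Npas4* measured 52.2, 122 and 2.46 CPM in FXR+/+ and 12.3, 52.3 and 14.9 CPM in FXR-/- islets. *Arc*, a regulator of receptor trafficking at synapses, measured 36.4, 52.1 and 2.15 CPM in FXR+/+ and 9.11, 37.9 and 10.9 CPM in FXR-/- islets. In both genes the FXR-/- library was lower in the female 1 and male 1 pairs and higher in the male 2 pair. The fitted log2 fold change of *Npas4* was -1.28 ± 1.09 (SE), with an adjusted p of 0.652 by edgeR.

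Set against *Fos* in the same library, a scale chosen after the values were seen, *Npas4* and *Arc* had lower values in every FXR-/- library than in any FXR+/+ library. *Npas4* stood at 6.44%, 10.1% and 8.02% of *Fos* CPM in FXR+/+ and at 4.15%, 4.17% and 2.11% in FXR-/- islets. *Arc* stood at 4.50%, 4.29% and 7.0% in FXR+/+ and at 3.07%, 3.01% and 1.54% in FXR-/- islets. Of 43 genes of the set compared with *Fos*, 2 had genotypes that did not overlap, *Npas4* and *Arc*. In CPM, 15.4% of all genes did not overlap, and the share on the scale of *Fos* was not computed for all genes. *Npas4* and *Arc* were picked for this difference, so it is a description with no test.

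**Figure D2:**
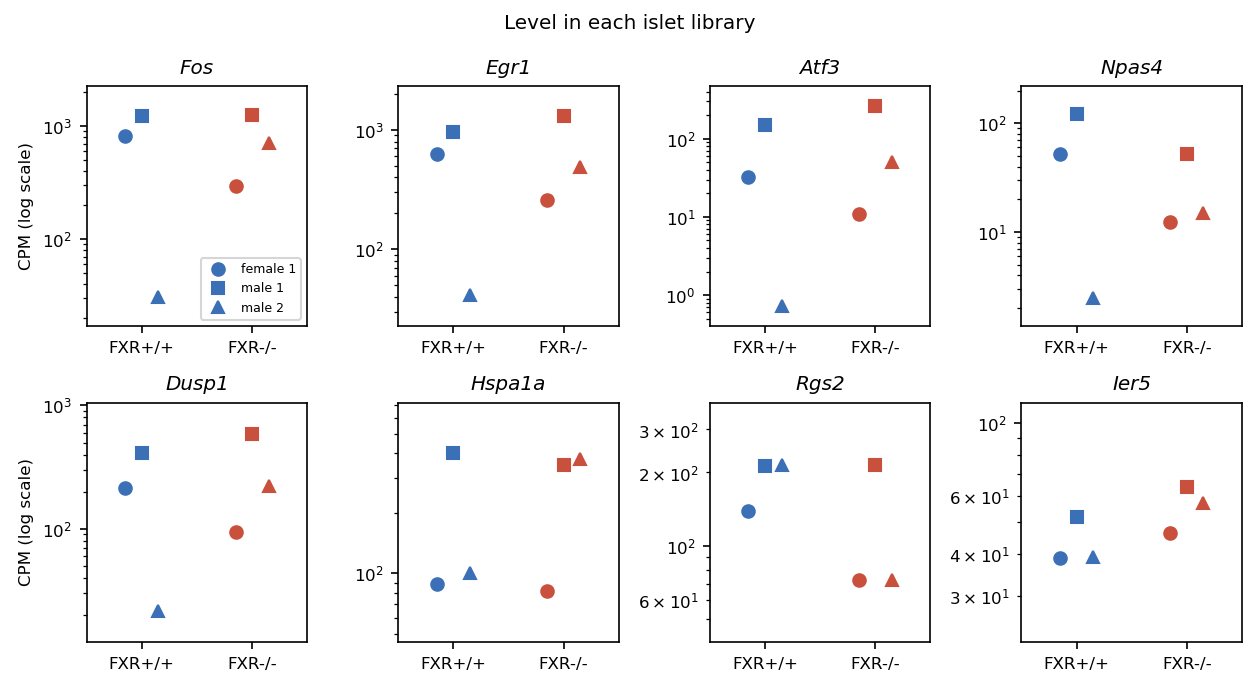
CPM (log axis) of 8 genes in each islet library by genotype, with female 1, male 1 and male 2 as circles, squares and triangles. FXR+/+ male 2 is the lowest point for *Fos*, *Egr1*, *Atf3*, *Npas4* and *Dusp1* but not for *Hspa1a* or *Rgs2*, and for *Ier5* it is level with FXR+/+ female 1 (39.4 and 38.9 CPM).

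Among the 4 heat shock proteins, *Hspa1a*, *Hspa1b* and *Dnajb1* followed a different order. *Hspa1a* (HSP70), a chaperone that refolds damaged proteins, lies on GRCm38 chromosome 17 from 34969359 to 34972156. It measured 88.1, 399 and 99.97 CPM in FXR+/+ and 81.2, 349 and 372 CPM in FXR-/- islets. Its near-identical neighbour *Hspa1b* measured 43.6, 199 and 64.4 CPM in FXR+/+ and 42.9, 144 and 180 CPM in FXR-/- islets. *Dnajb1* (HSP40), the co-chaperone of HSP70, measured 66.4, 158 and 77.1 CPM in FXR+/+ and 57.7, 228 and 136 CPM in FXR-/- islets. In these 3 genes both male 1 libraries and FXR-/- male 2 were high, while both females and FXR+/+ male 2 were low. *Hspb1*, a small heat shock protein, measured 16.5, 40.9 and 16.3 CPM in FXR+/+ and 17.5, 63.1 and 23.9 CPM in FXR-/- islets, with FXR-/- male 2 well below both male 1 libraries. The ends of its range were in the same libraries as for *Fos*, but FXR+/+ male 2 was level with both females. With exon counts FXR+/+ female 1 was lowest for *Hspb1*.

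In FXR-/- male 2 the summed heat shock level was therefore close to that of the male 1 libraries, at 713 CPM against 797 and 784 CPM, whereas the summed level of the other genes was 4180 CPM there against 7890 and 10800 CPM. In FXR+/+ male 2 the sums were 258 CPM for heat shock proteins and 1050 CPM for the other genes. In FXR+/+ female 1 they were 215 and 4570 CPM, and in FXR-/- female 1 they were 199 and 2180 CPM. The female 1 library of FXR+/+ thus had 4.34 times the early gene level of FXR+/+ male 2 with a similar heat shock level.

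The promoters of *Hspa1a* and *Hspa1b* are shown because they are alike in sequence and the transcripts share reads. They lie on the minus strand at chr17:34972157-34972406 and chr17:34959239-34959488, and capitals mark the heat shock element GAANNTTC at 104 bases before the start.
Hspa1a: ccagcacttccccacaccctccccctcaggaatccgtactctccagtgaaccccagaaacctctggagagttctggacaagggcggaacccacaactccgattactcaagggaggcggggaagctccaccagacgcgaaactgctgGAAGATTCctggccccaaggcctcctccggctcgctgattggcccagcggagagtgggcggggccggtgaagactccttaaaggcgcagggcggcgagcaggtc
Hspa1b: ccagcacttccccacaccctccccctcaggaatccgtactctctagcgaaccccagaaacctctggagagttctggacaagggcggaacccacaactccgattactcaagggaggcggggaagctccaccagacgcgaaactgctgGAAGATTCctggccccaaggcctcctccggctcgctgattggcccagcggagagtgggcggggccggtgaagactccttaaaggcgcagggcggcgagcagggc
The promoters were identical at 247 of 250 bases, differing by C44T, T47C and T249G, with positions counted from 1 at the 5′ end and the base of *Hspa1a* first. GAANNTTC or TTCNNGAA was found on either strand for 7 of the 37 genes of the set with a promoter (18.9%). Of these, 3 were among the 4 heat shock proteins. Among all genes tested that had a promoter the share was 12.1%. Of all 75-base windows, 52.7% of those in the *Hspa1a* transcript also occur in *Hspa1b*. The division of counts between these genes is uncertain for that reason.

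*Ier5*, an early response gene linked to HSF1, was the least variable gene of the set. It measured 38.9, 51.9 and 39.4 CPM in FXR+/+ and 46.4, 64.2 and 57.2 CPM in FXR-/- islets, a span of 1.65 times. The FXR-/- library was higher in each of the 3 pairs, although FXR-/- female 1 lay below FXR+/+ male 1. Its log2 fold change was 0.36 ± 0.12 (SE), with an unadjusted p of 0.018 and an adjusted p of 0.431 by edgeR.

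Whether loss of FXR changed these genes was tested in the fit over all 14619 genes with terms for sex and genotype. No gene of the set was called at an adjusted p under 0.05 by edgeR, as was 0% of all genes. At an unadjusted p under 0.05 only *Ier5* was found, higher in FXR-/- islets, where 6.19% of all genes were. DESeq2 called 0 of the 44 genes of the set and 177 of the 14619 genes, but gave no adjusted p for *Dusp2* and *Ptgs2*, which could not be called. *Fos* had a log2 fold change of -0.02 ± 1.07 (SE) and *Egr1* of 0.15 ± 1.01 (SE). In the fit 35 of 44 genes were higher in FXR-/- islets (51.6% of all genes), with a median log2 fold change of 0.23 against 0.01 over all genes. No gene had genotypes that did not overlap, as 15.4% of all genes had.

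The direction of the difference changed from pair to pair. In the female 1 pair 41 of 44 genes were lower in FXR-/- islets (49.6% of all genes), with a median ratio of 0.553. In the male 1 pair 37 genes were higher (49.6% of all genes), with a median ratio of 1.41. In the male 2 pair 43 genes were higher (52.7% of all genes), with a median ratio of 2.67, and *Rgs2* alone was lower. *Ier5*, *Nfkbia* and *Hspb1* had a ratio over 1 in all 3 pairs, where 39.3% of all genes kept 1 direction. For *Nfkbia* the female 1 libraries were level, at 38.9 and 39.0 CPM, and DESeq2 size factors put the FXR-/- library slightly lower. *Rgs2*, with level male 1 libraries (212 and 215 CPM), was lower in all 3 pairs with upper quartile scaling, library size alone or exon counts.

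**Figure D3:**
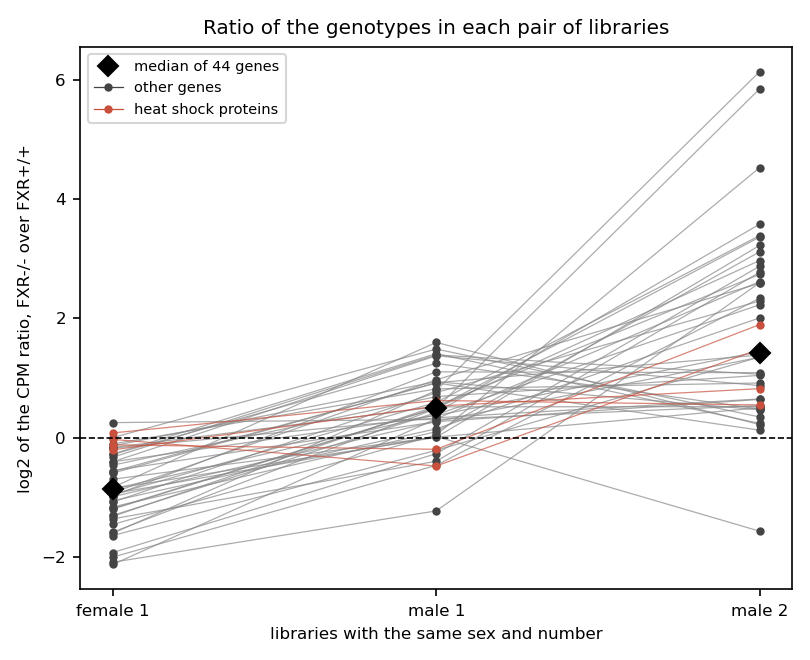
Log2 of the FXR-/- over FXR+/+ CPM ratio for 44 genes in the female 1, male 1 and male 2 pairs, with heat shock proteins in red, the median as a diamond and the dashed line at equal level. Most points lie below the line in the female 1 pair, near or above it in the male 1 pair and above it in the male 2 pair, up to a ratio of 70.2 for *Atf3*.

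The replicate block, which compares the genotypes within these pairs, called 24 of the 14619 genes tested and 0 of the 44 genes of the set. It gave 9 genes of the set with an unadjusted p under 0.05, of which 8 were higher in FXR-/- islets, against 16.1% of all genes. The 9 were *Maff*, *Gadd45a*, *Gadd45g*, *Ier3*, *Ier5*, *Nfkbia*, *Hspb1*, *Dnajb1* and *Rgs2*, of which *Rgs2* was lower. The smallest adjusted p among them was 0.127, for *Ier5*, with a log2 fold change of 0.37.

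Single libraries set the sign of the average. The median log2 fold change over the set was 0.23 with all 6 libraries, -0.33 without FXR+/+ male 2, -0.46 without FXR-/- male 1 and 0.93 without FXR+/+ male 1. It was 0.66 without FXR+/+ female 1, 0.65 without FXR-/- female 1 and 0.45 without FXR-/- male 2. *Fos* itself moved from -0.81 without FXR+/+ male 2 to 1.94 without FXR+/+ male 1, and *Egr1* from -0.64 to 1.74 under the same omissions. With both male 2 libraries left out, an alternative added after the data were seen, *Npas4* was the only gene of the set called (log2 fold change -1.63, adjusted p = 0.000191), against 0.292% of all genes. That fit has 4 libraries and leaves out the pair in which *Npas4* went the other way, with a FXR-/- over FXR+/+ ratio of 6.05 against 0.236 and 0.428 in the female 1 and male 1 pairs, so the call rests on a choice made with these values in view. In the same fit 14 genes of the set had an unadjusted p under 0.05, 7 of them higher in FXR-/- islets, against 7.81% of all genes.

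**Figure D4:**
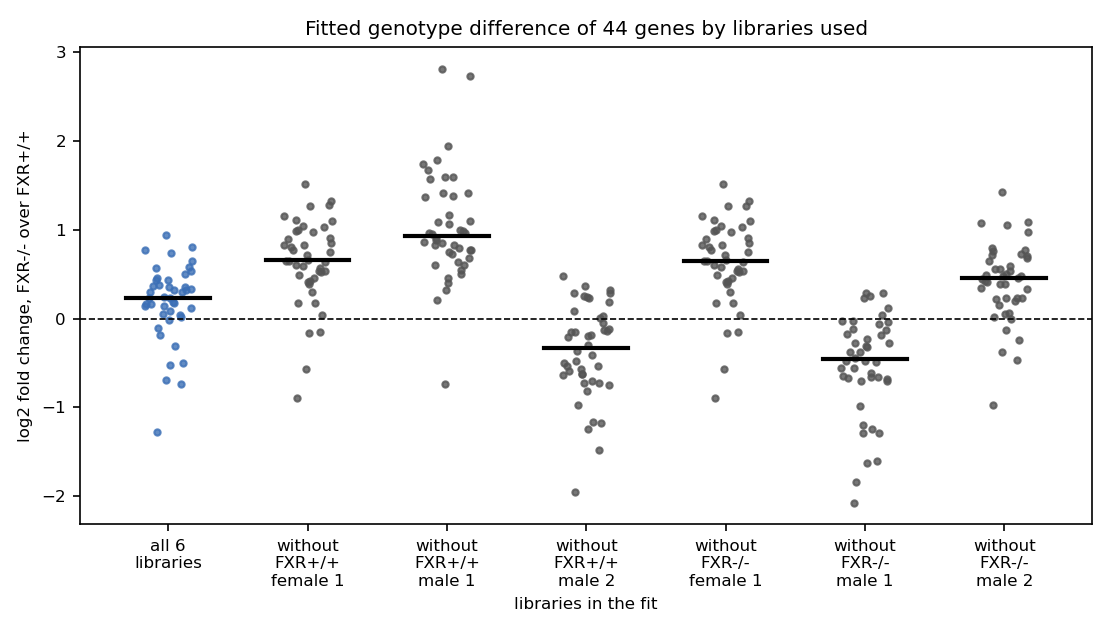
Fitted log2 fold change of FXR-/- over FXR+/+ for the 44 genes (points) with all 6 libraries and with each library left out, with the median as a bar and the dashed line at no difference. The median is 0.23 with all libraries, falls below 0 only without FXR+/+ male 2 or FXR-/- male 1, and is 0.93 without FXR+/+ male 1.

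Between the sexes, all 44 genes were lower in females in the fit with all 6 libraries, against 50.6% of all genes, with a median log2 fold change of -0.83. No gene of the set was called by edgeR, where 0.0547% of all genes were, and DESeq2 also called 0 genes of the set. The 4 genes with an unadjusted p under 0.05 were all lower in females (3.86% of all genes). *Hspa1a* had a log2 fold change of -1.81 ± 0.50 (SE, adjusted p = 0.552), *Hspa1b* of -1.75 ± 0.41 (SE, adjusted p = 0.488), *Dnajb1* of -1.22 ± 0.35 (SE, adjusted p = 0.552) and *Ier5* of -0.31 ± 0.13 (SE, adjusted p = 0.651). Each sex comparison rests on 1 female library per genotype.

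These calls changed when FXR+/+ male 2, the male library near the female level for heat shock proteins, was left out. Without it *Hspa1a* and *Hspa1b* were called by edgeR, with log2 fold changes of -2.16 (adjusted p = 0.000103) and -2.04 (adjusted p = 0.00115), where 0.0944% of all genes were called. In the same fit 32 genes of the set had an unadjusted p under 0.05, lower in females, against 6.60% of all genes. That fit leaves out the male library nearest the females for heat shock proteins and lowest for 36 of the 44 genes, so these results rest on that omission. Leaving out any other library gave no calls for sex in the set. *Hspa1a* and *Hspa1b* share reads, so their calls are not separate results. The median difference was -1.36 without FXR+/+ male 2 and -1.72 without FXR+/+ female 1, but -0.23 without FXR+/+ male 1, -0.17 without FXR-/- female 1 and -0.35 without FXR-/- male 1, and some genes were higher in females in each of the last 3 fits. Scaling to library size alone moved the median sex difference of all genes by over 0.1, to 0.15, and that of the set to -0.67. In the edgeR test of whether the genotype difference differed between the sexes, 0 genes of the set were called, and 1, *Gadd45a*, had an unadjusted p under 0.05, against 1.48% of all genes.

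Markers of other cells moved with part of this pattern. The 12 acinar markers, enzymes of the exocrine pancreas, summed to 45000, 123000 and 40100 CPM in FXR+/+ and to 57300, 138000 and 81900 CPM in FXR-/- islets. None of the 12 was at 0 in all libraries. Their sum was thus highest in both male 1 libraries, and FXR+/+ male 2 had the lowest. FXR+/+ female 1 and male 2 had acinar sums of 45000 and 40100 CPM and *Fos* levels of 810 and 30.7 CPM. With a term for acinar RNA in the fit, the median log2 fold change of the set for genotype was -0.20 in place of 0.23. FXR+/+ male 2 had the lowest sum for 8 of the 10 marker lists, the exceptions being beta cells and B cells, and FXR-/- male 1 had the highest for 4, the acinar, delta, endothelial and macrophage lists. Some of the 8 were near ties or near the floor. The ductal sum was 218 CPM in both FXR+/+ male 2 and FXR-/- female 1. The endothelial sum was 419 CPM in FXR+/+ male 2 and 428 CPM in FXR+/+ female 1. The neutrophil sum in FXR+/+ male 2 was 0.6 CPM, with 1 of 3 genes tested. The 6 macrophage markers summed to between 103 and 158 CPM, and all 6 were highest in FXR-/- male 1 and 5 lowest in FXR+/+ male 2. The 5 endothelial markers summed to between 419 and 834 CPM with the peak in FXR-/- male 1, the 6 stellate and fibroblast markers to between 42.2 and 148 CPM with the peak in FXR+/+ male 1, and the 7 beta cell markers to between 185000 and 269000 CPM with the peak in FXR-/- male 2. The deposited exon counts, as a share of gene counts, were 33.1% and 32.3% in the male 1 libraries and 36.6% in FXR+/+ male 2. They were 36% in FXR+/+ female 1, 35.4% in FXR-/- female 1 and 33.7% in FXR-/- male 2. The part of these differences in the spread of the set was not tested. In bulk RNA from whole islets, fewer cells of a type and less RNA per cell cannot be told apart.

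The genes that feed into the response varied about as little as genes at large. Of 22 upstream kinases and resident factors, such as *Srf*, *Creb1* and the MAP kinases, 0 differed at least 4-fold between libraries. Of all genes 4.71% did, which is the background for the 4-fold counts of these lists. The median span of the 22 was 1.28 times, against 1.4 over all genes, and their largest was 1.96 times. None of the 22 was called for genotype by edgeR, and 1, *Map2k2*, had an unadjusted p under 0.05, with a log2 fold change of 0.34. Among all genes, 6.19% were higher and 4.16% lower in FXR-/- islets at that threshold, which is the background for these lists. Of 38 other immediate early and delayed early genes, 36 were tested and 12 differed at least 4-fold. None of the 36 was called for genotype by edgeR, and 5 had an unadjusted p under 0.05, all higher in FXR-/- islets: *Nfil3*, a bZIP repressor (log2 fold change 2.29), *Vgf*, a secreted neuropeptide precursor (0.87), *Plk3*, a stress kinase (0.56), *Dusp14* (0.49) and *Dusp10* (0.44), both MAP kinase phosphatases. Of 14 other heat shock genes none differed at least 4-fold, none was called by edgeR, and 3 had an unadjusted p under 0.05, *Cryab* higher (0.97) and *Dnaja1* (-0.32) and *Dnajb4* (-0.20) lower in FXR-/- islets.

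Per length of exon, a few early genes were among the abundant transcripts of these islets. The mean level of *Fos* was 306 CPM per kb, rank 72 of the 14009 genes tested with a length. *Jund* was at 262 CPM per kb (rank 89), *Jun* at 170 CPM per kb (rank 125) and *Egr1* at 137 CPM per kb (rank 161). These are means over libraries that differ widely, and the order of the first 2 turned with the library: *Jund* was above *Fos* in FXR+/+ male 2 (84.4 against 13.0 CPM per kb), FXR-/- male 1 (619 against 534 CPM per kb) and, narrowly, FXR-/- female 1 (128 against 126 CPM per kb). *Ptgs2* was at 0.177 CPM per kb. Exons of 10 of the 45 genes overlap those of another gene in GENCODE vM21, among them *Jun* (*Junos*), *Junb* (*Prdx2*), *Jund*, *Dusp1* (*Ergic1*), *Zfp36* and *Hspa1a*, and how reads in such exons were counted is not given in the sources used here.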

How the data were processed

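RNA-seq counts of 6 islet libraries were re-analysed, with groups taken from the sample labels. The authors deposited whole-number counts per gene and per exon without normalization. Alignment with HISAT is named in the submitters' processing notes, and its version, the genome build and the counting rule are not given in the sources used here. Comparison tables that the authors deposited (means, log2 fold changes, p-values and q-values) were not used. There were 0 unused columns of values per sample and 0 rows without a gene.

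Testing used edgeR 4.0.16 under R 4.3.3 (filterByExpr by genotype, minimum count 10 and minimum total 15; TMM; quasi-likelihood fit with terms for sex and genotype; Benjamini-Hochberg adjustment over 14619 genes, threshold 0.05). Residual degrees of freedom were 3 and prior degrees of freedom 4.43. DESeq2 1.42.0, other scalings and filters, exon counts, a replicate block, males alone, an acinar term and omission of each library were alternatives. The scripts were tested on simulated data. With 10 or more counts in every library, 39 of the 45 genes are well counted.

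The genes and lists were chosen with earlier results of these data known. Values in every library are given for *Fos*, *Egr1*, the most abundant gene of each role group, the 8 genes with the largest ratio of highest to lowest library among those with at least 10 counts throughout, and genes with an unadjusted p under 0.05 for genotype or sex. *Arc* and *Rgs2* were added after their values were seen, and *Hspb1* is also given although it meets none of these rules. Library numbers in the labels were checked for pairing by correlating deviations from genotype means across genes. Same-number values were 0.359 (female 1), 0.351 (male 1) and 0.307 (male 2), and values between different numbers were at most 0.00887. Deviations cancel within a genotype, so positive same-number values make the others negative on average. The contrast between them is therefore not separate evidence of pairing. The female 1 libraries also share their sex. A replicate block was fitted as an alternative. Over the 44 genes of the set alone the same-number values were -0.263, 0.574 and 0.0856. FXR+/+ male 2 with FXR-/- female 1 gave 0.556, so the pattern seen over all genes was not seen for the set. What the numbers share is not stated.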

Additional observations from a re-analysis of the deposited data

How the results depend on the processing

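The number of genes differing at least 4-fold between libraries was 34, and from 27 to 35 under other scalings, exon counts or within 1 genotype. The set's count of genotype calls was 0 in every fit run except that with both male 2 libraries left out, chosen after the data were seen, where it was 1. Calls among all genes, 0 in the fit with sex, were 24 with the replicate block, 177 with DESeq2, 4 with exon counts, 5 with a term for acinar RNA and 43 with both male 2 libraries left out. At an unadjusted p under 0.05 for genotype, 1 gene of the set was found in the fit with sex, where 1513 of 14619 genes were. The replicate block gave 9, 8 of them higher in FXR-/- islets (2351 of 14619 genes). Males alone gave 2, 2 of them higher (1219 of 14717 genes). Library size alone gave 2, 1 higher (1507 of 14619 genes), and exon counts gave 2, 1 higher (1333 of 13764 genes). The acinar term gave 6, 1 higher (1283 of 14619 genes). Leaving out both male 2 libraries gave 14, 7 higher (1150 of 14724 genes). With a library left out the number ran from 1 to 5. The 5 came without FXR+/+ male 2, 1 of them higher (957 of 14838 genes). For sex, from 0 to 2 genes of the set were called with a library left out. Median log2 fold changes of the set ran from -0.46 to 0.93.

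*Fos*, at -0.02, changed sign to 0.14 without the sex term, 0.72 with the replicate block, 0.66 in males alone and 0.0053 with exon counts, and ranged from -0.81 to 1.94 with a library left out. *Egr1*, at 0.15, changed sign to -0.22 with the acinar term and -0.44 with both male 2 libraries left out, and ranged from -0.64 to 1.74. *Npas4* ranged from -2.07 to 0.89, positive only without FXR+/+ male 1. *Hspa1a* and *Hspa1b* remained lower in females throughout, at -2.16 to -1.27 and -2.04 to -1.32. *Ier5* remained higher in FXR-/- islets under every alternative run (0.24 to 0.46, adjusted p from 0.127 to 0.852). Why the values moved was not tested. With 3 libraries per genotype and this spread, differences of the size seen here could not be resolved, and the lowest counts, such as the 2 of *Dusp2* in FXR+/+ male 2, limit ratios.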

Other observations

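Genes outside the set showed the library pattern in part. *Nfil3*, named by its unadjusted p, measured 18.3, 12.0 and 3.72 CPM in FXR+/+ and 24.7, 99.7 and 39.9 CPM in FXR-/- islets, so it shared the highest and lowest library with *Fos* while its genotypes did not overlap. *Vgf* measured 22.2, 26.9 and 18.9 CPM in FXR+/+ and 33.3, 51.9 and 40.6 CPM in FXR-/- islets, also without overlap. Of the 36 other early genes tested, 7 had genotypes that did not overlap, where 15.4% of all genes did not, and these 2 are named by their unadjusted p. Both had an adjusted p over 0.05 by edgeR, at 0.430 and 0.243.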
